A study of Mus musculus with 4 samples.

Results

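Metallothioneins are small cysteine-rich proteins that bind zinc and copper, and the genes described here are Mt1, Mt2 and Mt3, 3 of the 27998 genes listed in the files. They were selected on measured values, with the UMI counts of these same libraries already known, so every level and ratio below is a description and supports no test. The cells were dissociated from inner ear organoids, 3D aggregates grown from mouse embryonic stem cells that develop hair cells and otic epithelium together with other tissues. The KO organoids came from the line R1/E-Tmprss3KO-GFPKI and the WT organoids from R1/E, a line of the strain background 129X1x129S1. The 4 groups were KO at day 35, WT at day 35, KO at day 25 and WT at day 25, and each group was 1 library of dissociated organoids, so differences between groups have no replicate check. The line name gives the allele as a Tmprss3 knockout with a GFP knock-in, and the labels do not say whether the KO line is 1 clone or how many organoids were pooled.

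In mammals Mt1 and Mt2 are expressed in most tissues. Their transcription is raised by zinc and other metals through the transcription factor Mtf1, which binds short metal response elements in the promoters, and also by glucocorticoids and by interleukin-6 through Stat3. Mt3 is found mainly in the central nervous system and responds little to metals, and Mt4 is a gene of stratified squamous epithelium.

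All 3 genes lie on the plus strand of chromosome 8 in one cluster (GRCm38, GENCODE M21), each with 3 exons in its first listed transcript. Mt3 spans 94152607 to 94154146, Mt2 94172664 to 94173568 and Mt1 94179082 to 94180327, so Mt2 and Mt1 are 5513 bases apart and Mt3 ends 18517 bases before Mt2. Mt4 lies on the other side of Mt3 at 94137197 to 94139031. No stretch longer than 27 bases is shared exactly between the annotated transcripts of any pair of the 3 genes, and Mt1 and Mt2 share at most 20. How reads that match several genes were counted is not given in the sources used here. Mt2 overlaps the antisense gene Gm45774, which is not among the genes counted.

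The promoters are printed to show the letters of the metal response element in each of the 3 genes. Each sequence is RefSeq's window in GRCm38.p6 of 250 bases before to 50 bases after the annotated start, plus strand, at chr8:94178839-94179138 for Mt1, chr8:94172368-94172667 for Mt2 and chr8:94152357-94152656 for Mt3. Capitals mark every match to the core of the metal response element, searched as TGCACNC and TGCGCNC on both strands, counting overlapping matches once.
Mt1: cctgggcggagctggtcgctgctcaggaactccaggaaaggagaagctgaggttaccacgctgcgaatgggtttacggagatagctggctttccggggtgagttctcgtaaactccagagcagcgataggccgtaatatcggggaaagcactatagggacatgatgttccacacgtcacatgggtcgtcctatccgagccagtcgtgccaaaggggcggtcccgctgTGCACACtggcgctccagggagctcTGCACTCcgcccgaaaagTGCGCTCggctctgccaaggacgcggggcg
Mt2: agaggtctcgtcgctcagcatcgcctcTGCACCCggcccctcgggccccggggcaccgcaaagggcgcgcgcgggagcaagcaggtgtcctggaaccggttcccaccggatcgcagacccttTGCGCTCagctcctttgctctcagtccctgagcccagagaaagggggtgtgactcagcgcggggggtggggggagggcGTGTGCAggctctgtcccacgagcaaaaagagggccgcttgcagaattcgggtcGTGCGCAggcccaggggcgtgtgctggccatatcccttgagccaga
Mt3: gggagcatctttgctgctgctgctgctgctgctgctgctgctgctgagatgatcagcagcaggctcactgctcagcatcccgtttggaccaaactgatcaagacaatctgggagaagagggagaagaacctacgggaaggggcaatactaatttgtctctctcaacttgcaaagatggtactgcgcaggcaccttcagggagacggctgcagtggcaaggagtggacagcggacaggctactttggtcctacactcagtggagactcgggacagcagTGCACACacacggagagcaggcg
Mt2 held 4 matches, Mt1 held 3 and Mt3 held 1. Of 32851 RefSeq promoter windows of 300 bases, 25.7% held at least 1 match, 1.31% held at least as many as Mt1 and 0.295% at least as many as Mt2. The matches of Mt1 began between 23 bases before and 21 bases after the start that RefSeq gives, and those of Mt2 between 223 bases before and 5 bases after it. The windows follow the start that RefSeq gives, and other annotated starts differ. The Mt2 window ended at 94172667, while GENCODE starts Mt2 at 94172664. Matches outside the windows were not sought, so these are not counts of all elements of a gene. A match is a run of letters, and binding was not measured.

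Barcodes entered the counts when they had 500 or more genes and no more than 10% of UMIs from mitochondrial genes, which left 6729 cells in KO and 8166 in WT at day 35, and 11190 in KO and 9768 in WT at day 25. Median depth moved with the day, at 4420 UMIs per kept cell in KO and 3089 in WT at day 35, against 6371 in KO and 6166.5 in WT at day 25. The median mitochondrial share moved the other way, at 3.42% in KO and 4.81% in WT at day 35, against 2.16% in KO and 2.69% in WT at day 25. Between 3.35% and 3.82% of a library's barcodes also occurred in another library. Tmprss3, the targeted gene, had 5 UMIs in KO and 8 in WT at day 35, and 7 in KO and 18 in WT at day 25, too few to check the labels. Cell types were gated by 18 marker sets, requiring at least 3 markers above what the library's mean profile gives at that cell's depth, and a gate is named X-like. At day 35 the gates hold 21.4% of KO and 13.8% of WT cells, and at day 25 they hold 21.7% of KO and 24.4% of WT cells, so most cells of each library carry no type here. Between 796 and 1408 cells a library were 1 marker short of a gate.

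Over all kept cells Mt1 and Mt2 were among the abundant transcripts of every library, and each of the 3 genes had its higher levels at day 35. Mt1 stood at 3723 counts per 1000000 UMIs (CPM) in KO and 4672 CPM in WT at day 35, and at 2034 CPM in KO and 1786 CPM in WT at day 25. By UMIs it ranked number 25 of all genes in KO and 21 in WT at day 35, and 100 in KO and 107 in WT at day 25. Mt2 had 1655 CPM in KO and 2298 CPM in WT at day 35, and 1099.6 CPM in KO and 1028 CPM in WT at day 25. Both day 35 libraries were above both day 25 libraries for these 2 genes, with WT the highest at day 35 and KO the higher at day 25. Mt3, the neural metallothionein, had 195 CPM in KO and 173 CPM in WT at day 35, and 65.6 CPM in KO and 81.8 CPM in WT at day 25. Its order was the reverse of that of Mt1 and Mt2 within each day. Exact 95% Poisson intervals, which cover counting error only, were narrow at these counts, and the one for Mt3 in WT at day 35 ran from 168 to 178 CPM.

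**Figure D1:**
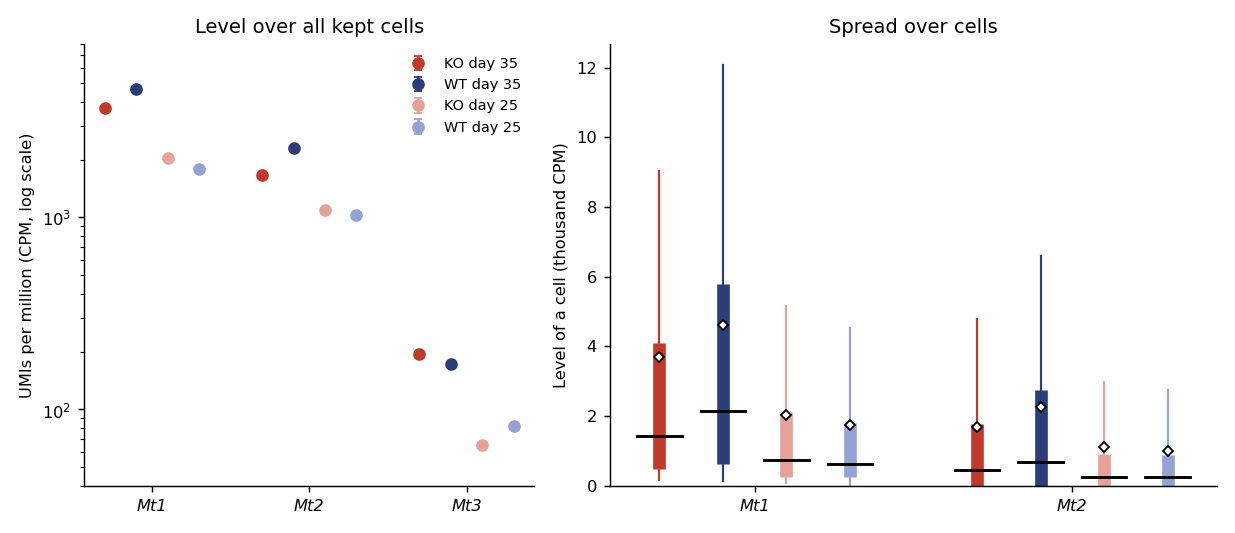
Left, level of each gene over all kept cells of the 4 libraries in CPM (log axis), with 95% Poisson intervals that are mostly smaller than the points. Right, spread of the level over cells for Mt1 and Mt2 in CPM (axis in units of 1000), where thin lines run from the 10th to the 90th percentile, thick bars from the 25th to the 75th, black lines are medians and diamonds means; Mt1 medians are 1427 CPM in KO and 2151 CPM in WT at day 35, and 733 CPM in KO and 637 CPM in WT at day 25.

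The family was unevenly spread over cells. The median cell had 1427 CPM of Mt1 in KO and 2151 CPM in WT at day 35, and 733 CPM in KO and 637 CPM in WT at day 25, each far below its library's pooled level. For Mt2 the median cell had 462 CPM in KO and 678 CPM in WT at day 35, and 257 CPM in KO and 245 CPM in WT at day 25. The 10% of cells with the highest level held 55.2% of Mt1 UMIs in KO and 49.2% in WT at day 35, and 55.5% in KO and 55.7% in WT at day 25. For Mt3 the same fraction of cells held between 90.4% and 99.2% of the UMIs. Thinning each cell to 2000 UMIs kept 7459 of 8166 WT cells at day 35 and all kept cells of the other libraries. Of these, 80.2% of KO and 85.0% of WT cells had an Mt1 UMI at day 35 after thinning, and 70.7% of KO and 67.5% of WT cells at day 25. The lowest thinned Mt1 share of any gate with at least 20 cells was 34.6%, in neuron-like cells of WT at day 25, and in KO at day 25 it was 43.3%, in the same type. Free RNA in droplets gives UMIs to cells that do not express a gene, and no type known to lack Mt1 was gated, so these are shares of cells with a UMI and not of cells that express Mt1. Without thinning the shares over all kept cells were 91.7% and 90.3% in KO and WT at day 35 and 90.7% and 88.4% in KO and WT at day 25. Mt3 was found in 11.7% of KO and 11.3% of WT cells at day 35 and in 4.996% of KO and 6.66% of WT cells at day 25 after thinning, and in 19.5%, 15.0%, 10.4% and 13.9% before it, in the same order. Within each library cells were split by depth into 3 equal sets, and the deepest set had a higher Mt3 level than the shallowest, 219.9 against 150.2 CPM in KO and 219.6 against 87.3 CPM in WT at day 35, and 75.1 against 51.2 CPM in KO and 100.2 against 47.0 CPM in WT at day 25. For Mt1 the same pair was 3899.5 against 3319.9 CPM in KO and 4889 against 4203 CPM in WT at day 35, and 1980.1 against 1987 CPM in KO and 1898 against 1413 CPM in WT at day 25.

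The day comparison over all kept cells gave higher levels of each member at day 35 in KO and in WT. In KO the log2 ratio of day 35 over day 25 was 0.87 (95% interval 0.86 to 0.88) for Mt1, 0.59 (0.58 to 0.60) for Mt2 and 1.57 (1.52 to 1.62) for Mt3, against a median of 0.14 over all genes. Mt3 alone was past 2-fold higher there, 2.97-fold, where 11.3% of 15320 genes with at least 50 UMIs were past 2-fold higher and 7.28% past 2-fold lower. In WT the ratio was 1.39 (1.38 to 1.40) for Mt1, 1.16 (1.14 to 1.17) for Mt2 and 1.08 (1.03 to 1.13) for Mt3, with a median of -0.14 over all genes. All 3 were past 2-fold higher in WT, a direction in which 6.96% of 14922 genes were called, while 13.1% were past 2-fold lower. With cells limited to at least 1000 genes and at most 5% mitochondrial UMIs, which left 39.4% of kept WT cells at day 35, Mt3 in WT had a ratio of 0.53 and was no longer past 2-fold, and Mt1 and Mt2 had 1.77 and 1.67. With each gated type weighted equally, Mt2 and Mt3 in WT stood at 0.95 and 0.76 and Mt3 in KO at 0.74, all within 2-fold, while Mt1 in KO reached 1.004.

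Between the genotypes the differences were smaller and turned round between the days. At day 35 KO over WT had a log2 ratio of -0.33 (-0.34 to -0.32) for Mt1, -0.47 (-0.49 to -0.46) for Mt2 and 0.17 (0.12 to 0.22) for Mt3, where the median over all genes was 0.23. At day 25 it was 0.19 (0.18 to 0.20) for Mt1, 0.10 (0.08 to 0.11) for Mt2 and -0.32 (-0.37 to -0.27) for Mt3, where the median over all genes was -0.03. No member was past 2-fold on either day. The part of the depth and mitochondrial share of the libraries, given above, in these differences was not tested. At day 35 7.82% of 14276 genes were past 2-fold higher and 2.41% past 2-fold lower, and at day 25 1.89% of 15573 genes were past 2-fold higher and 3.68% past 2-fold lower. The lower Mt1 and Mt2 of KO at day 35 kept their direction under each scaling, filter and weighting tried. The day 25 values did not, since with each gated type weighted equally Mt1 stood at -0.046 and Mt2 at -0.079, and without the thinly filled chondrocyte-like gate at 0.19 and 0.23. For Mt3 equal weights gave -0.15 at day 35 and 0.39 at day 25, and without the chondrocyte-like and hair cell-like gates, whose Mt3 ratios rest on few UMIs, 0.21 at day 35 and 0.15 at day 25, while scaling by the median of ratios gave -0.031 at day 35.

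By cell type, Mt1 and Mt2 UMIs were found in every gate compared, while high levels of Mt3 were found in few. The part of free RNA in the low levels of a gate was not tested. At least 20 cells were gated for 35 pairs of type and library, 10 types in KO and 5 in WT at day 35, and 11 in KO and 9 in WT at day 25. In these pairs Mt1 ran from 525 CPM in neuron-like cells of WT at day 25 to 31976.5 CPM in adipocyte-like cells of KO at day 35.

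Adipocyte-like cells, gated on genes such as Adipoq (the hormone adiponectin), Plin1 (a lipid droplet protein) and Fabp4 (a fatty acid carrier), held the highest Mt1 level of any gate with at least 20 cells in KO at day 35 and in WT at day 25. In KO at day 25 astrocyte-like cells were above them, at 4246 CPM of Mt1. Their Mt1 stood at 31976.5 CPM in 69 KO cells at day 35, against 4062 CPM in 126 KO cells and 4499 CPM in 120 WT cells at day 25. Mt2 stood there at 10707 CPM in KO at day 35, against 1184 CPM in KO and 1366 CPM in WT at day 25. The median cell differed by more than the pooled level, with 24034 CPM of Mt1 in KO at day 35, against 1647 CPM in KO and 1272 CPM in WT at day 25, and the richest single cell of KO at day 35 held 5.44% of the gate's Mt1 UMIs. Median depth of the gate was 8177 UMIs in KO at day 35, against 18685 in KO and 13748 in WT at day 25, and its part in the difference was not tested. These cells were 1.03% of KO cells at day 35 and held 13.1% of that library's Mt1 UMIs and 9.83% of its Mt2 UMIs. WT at day 35 had 13 such cells, under the minimum of 20, with 14953 CPM of Mt1, so this gate has no genotype comparison at day 35. Mt3 was close to absent from it, with 5 UMIs in KO at day 35 and 13 in KO and 12 in WT at day 25.

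Astrocyte-like cells, gated on glial genes such as Gfap (an intermediate filament), Aqp4 (a water channel) and Slc1a3 (a glutamate transporter), were the only gate with all 3 genes above the pooled level of their library, in each of the 3 libraries that had at least 20 of them. Mt1 stood at 13153 CPM in 109 KO cells at day 35, and at 4246 CPM in 120 KO cells and 3837 CPM in 139 WT cells at day 25. Mt3 stood at 3028 CPM in KO at day 35, and at 2454 CPM in KO and 1287 CPM in WT at day 25. Every other gate was at or below 511 CPM for Mt3. After thinning to 2000 UMIs, 89.9% of these cells had an Mt3 UMI in KO at day 35, and 86.7% in KO and 80.6% in WT at day 25. In fibroblast-like cells, a mesenchymal type outside the known sites of Mt3, the same share was 2.86% in KO and 1.32% in WT at day 35, and 0.905% in KO and 1.76% in WT at day 25. Fibroblast-like cells had median depths of 4329.5, 3575, 7505 and 6386.5 UMIs in KO and WT at day 35 and KO and WT at day 25, and astrocyte-like cells 5240 UMIs in KO at day 35 and 7282.5 in KO and 7412 in WT at day 25. The astrocyte-like gate held 1.07% to 1.62% of the cells of those 3 libraries and 25.6% of Mt3 UMIs in KO at day 35, and 42.5% in KO and 25.7% in WT at day 25. WT at day 35 had fewer than 20 such cells. Most Mt3 UMIs at day 35 were in cells of no single gate, which held 63.3% in KO and 88.0% in WT.

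Otic epithelium-like cells, gated on genes of the inner ear lining such as Oc90 and Otoa, carried the next Mt3 level after astrocyte-like cells. Markers of another type were also raised in this gate: chondrocyte markers stood at 3.40 times the level of the library in KO at day 35, 19.8 times in KO at day 25 and 5.95 times in WT at day 25, and markers of Schwann cells or satellite glia at 3.45 times in WT at day 35. Their part in the levels of this gate was not tested. Mt3 stood there at 292 CPM in 162 KO cells and 511 CPM in 71 WT cells at day 35, and at 194 CPM in 47 KO cells and 227 CPM in 58 WT cells at day 25. Thinned shares with an Mt3 UMI were 30.9% in KO and 54.3% in WT at day 35, and 25.5% in KO and 25.9% in WT at day 25, all above the fibroblast-like shares. Oligodendrocyte lineage-like cells had 128 to 163 CPM and neuron-like cells 54.6 to 210.4 CPM over the libraries that had them. The small chondrocyte-like gate had 168 CPM in KO and 33.8 CPM in WT at day 25, and the Schwann or satellite glia-like gate 69.2 CPM in KO at day 25. Keratinocyte-like, fibroblast-like, hair cell-like, myotube-like, pluripotent-like, immune-like and adipocyte-like cells were all at or below 68.5 CPM. Of the 47 Mt3 UMIs in keratinocyte-like KO cells at day 35, 61.7% came from 1 cell. Hair cell-like cells, the sensory cells of the organ, had 2 Mt3 UMIs in 28 KO cells and 9 in 47 WT cells at day 35, and were too few at day 25.

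**Figure D2:**
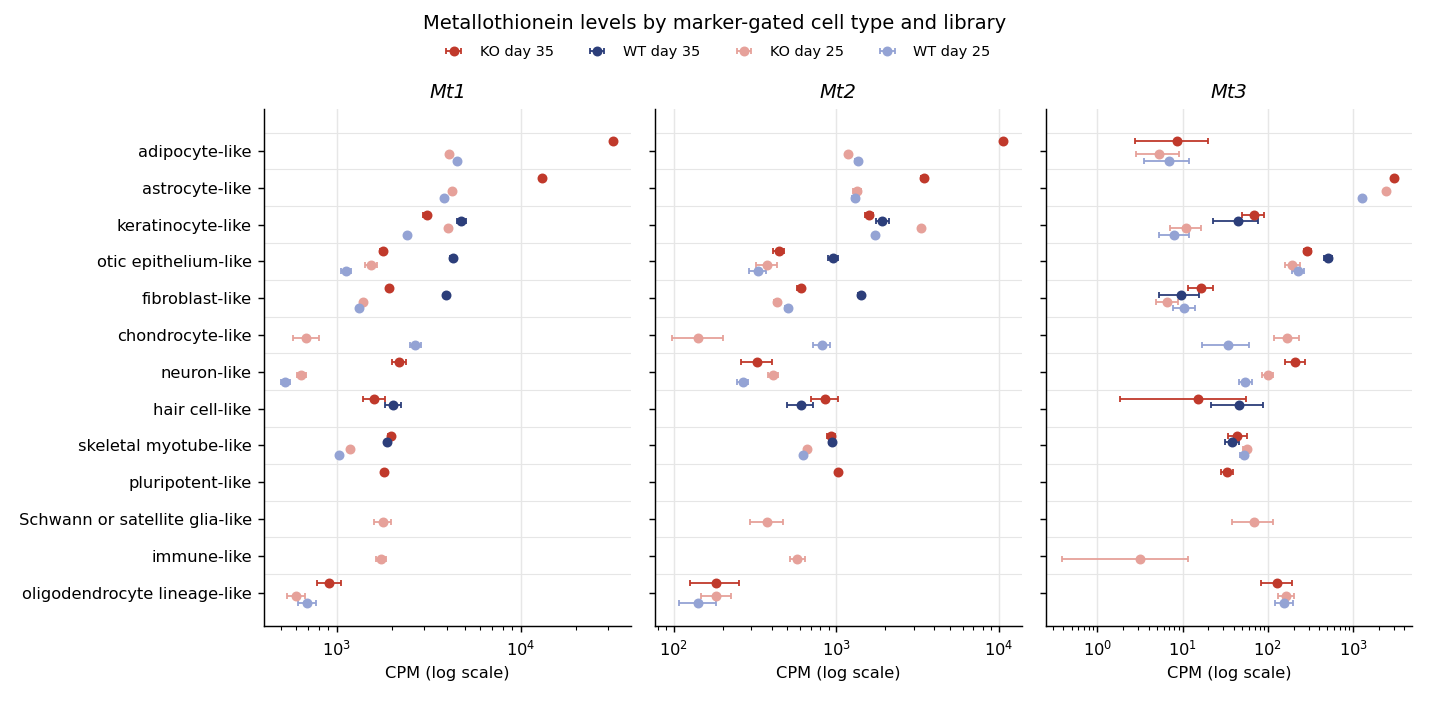
Level of each gene in CPM (log axes) in each marker-gated type with at least 20 cells, 1 point per library with its 95% Poisson interval; gates run from the highest Mt1 level at the top. Adipocyte-like and astrocyte-like cells of KO at day 35 lead for Mt1 and Mt2, at 31976.5 and 13153 CPM of Mt1, and astrocyte-like cells lead for Mt3.

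Among the other gates Mt1 was low in neuron-like cells at day 25, at 642 CPM in 245 KO cells and 525 CPM in 419 WT cells, and in oligodendrocyte lineage-like cells, at 907 CPM in KO at day 35 and 598 CPM in KO and 691 CPM in WT at day 25. Keratinocyte-like cells, the epidermal cells of these cultures, had 3091 CPM of Mt1 in KO and 4755 CPM in WT at day 35, and 4005 CPM in KO and 2398 CPM in WT at day 25. Hair cell-like cells were not high, with 1601 CPM of Mt1 in KO and 2013 CPM in WT at day 35. A single cell held 28.7% of the Mt1 UMIs of the WT hair cell-like cells and another 52.3% of the Mt2 UMIs of the KO ones. The medians over cells were 878 CPM of Mt1 in KO and 696 CPM in WT, the other way round from the pooled levels. Pluripotent-like cells, gated with at least 20 cells in KO at day 35 alone, where there were 254, had 1799.7 CPM of Mt1 and 1027 CPM of Mt2.

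The day difference of Mt1 held in most gates of both genotypes. In KO 7 of 8 gates compared were higher at day 35, with a median log2 ratio of 0.67, and in WT 4 of 4 were, with a median of 1.29. Mt2 was higher at day 35 in 5 of 8 gates in KO and 4 of 4 in WT. Mt3 was higher in 6 of 8 in KO and only 2 of 4 in WT. The counting interval of Mt3 lay above 0 in 5 gates in KO, and above 0 in 2 and below 0 in 1 in WT. In KO adipocyte-like cells the log2 ratio was 2.98 (2.94 to 3.01) for Mt1 and 3.18 (3.11 to 3.24) for Mt2, where 5.52% of genes were past 2-fold higher. Astrocyte-like KO cells had 1.63 (1.58 to 1.69) for Mt1, 1.37 (1.27 to 1.47) for Mt2 and 0.30 (0.22 to 0.39) for Mt3, with 5.4% of genes past 2-fold higher. Mt3 there differed by less than 2-fold while Mt1 and Mt2 were past it. Neuron-like KO cells, 21 at day 35, had 1.76 for Mt1, -0.33 for Mt2 (0.89 by medians over cells) and 1.08 for Mt3, with 11.1% of genes past 2-fold higher. In WT otic epithelium-like cells all 3 members were past 2-fold higher, at 1.93 (1.81 to 2.04) for Mt1, 1.54 (1.33 to 1.76) for Mt2 and 1.17 (0.90 to 1.44) for Mt3, where 9.11% of genes were. In WT fibroblast-like cells Mt1 and Mt2 were, at 1.58 and 1.497, where 5.74% of genes were, but by medians over cells Mt2 stood at 0.78, within 2-fold. The same gates in KO were closer to 0, at 0.22 for Mt1 and 0.24 for Mt2 in otic epithelium-like cells and 0.47 and 0.49 in fibroblast-like cells, and with 4 markers needed the fibroblast-like values were -0.032 and -0.22, while Mt3 in fibroblast-like KO cells was past 2-fold at 1.31 on 36 and 48 UMIs, as were 5% of genes there. Skeletal myotube-like cells, gated on contractile genes such as Acta1 and Myh3, differed by less than 2-fold in both genotypes, at 0.75 in KO and 0.87 in WT for Mt1 and 0.49 in KO and 0.59 in WT for Mt2. Mt3 in these cells was lower at day 35, at -0.36 (-0.77 to 0.03) in KO and -0.46 (-0.78 to -0.15) in WT.

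Keratinocyte-like cells were the exception to the day difference of Mt1 in KO. Mt1 stood at -0.37 (-0.44 to -0.31) and Mt2 at -1.06 (-1.15 to -0.97) for day 35 over day 25 in KO, where 5.45% of genes were past 2-fold lower, against 0.99 (0.90 to 1.07) and 0.15 (0.02 to 0.28) in WT. With 4 markers needed for the gate the KO value of Mt1 was 0.25, and with a looser tail of 0.01 for each marker the WT value of Mt2 was -0.14. Mt3 was past 2-fold higher in KO at 2.64, with 4.2% of genes, and at 1.41 without the cell with the most Mt3 UMIs in each library.

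At day 35, among the 5 gates compared, Mt1 and Mt2 were both lower in KO in the otic, epidermal and mesenchymal gates, the muscle gate was near 0, and the hair cell-like gate had lower Mt1 and higher Mt2. Otic epithelium-like cells had 1788 CPM of Mt1 in KO and 4264 CPM in WT, a log2 ratio of -1.25 (-1.33 to -1.18), and 442 CPM of Mt2 in KO and 957 CPM in WT, a ratio of -1.11 (-1.27 to -0.95). Both were past 2-fold lower, as were 1.81% of 5254 genes in this gate, and Mt3 was lower too, at -0.81 (-1.02 to -0.60). Fibroblast-like cells had 1927 CPM of Mt1 in KO and 3941 CPM in WT, a ratio of -1.03 (-1.09 to -0.98), and 604 CPM of Mt2 in KO and 1428 CPM in WT, a ratio of -1.24 (-1.34 to -1.14). Both were past 2-fold lower, as were 1.57% of 6679 genes. Medians over cells differed in the same direction, with 737 CPM of Mt1 in KO and 3237 CPM in WT in otic epithelium-like cells, and 613 CPM in KO and 1606 CPM in WT in fibroblast-like cells. Keratinocyte-like cells had ratios of -0.62 for Mt1 and -0.27 for Mt2. By medians over cells these were -1.27, with 1324 CPM of Mt1 in KO and 3194 CPM in WT, and -1.35, with 490 CPM of Mt2 in KO and 1253 CPM in WT. Hair cell-like cells had a ratio of -0.33 for Mt1, and 850.1 CPM of Mt2 in KO and 604 CPM in WT, a ratio of 0.49 (0.11 to 0.88). That Mt2 ratio was 0.88 by medians over cells, 0.18 without the cell with the most UMIs in each library, and -1.07 with a looser marker tail. Skeletal myotube-like cells had ratios of 0.07 for Mt1 and -0.01 for Mt2, within 0.14 of 0 in their intervals. The genotype difference was not compared between gates by any test, since each rests on 1 library per genotype. Depth in these gates differed as well, with medians of 7533.5 UMIs in KO and 9580 in WT for otic epithelium-like cells at day 35 and 4329.5 in KO and 3575 in WT for fibroblast-like cells, and its part in the ratios was not tested.

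At day 25 Mt1 and Mt2 were within 2-fold between the genotypes in each gate compared except the chondrocyte-like one. Mt1 was higher in KO in 6 of 9 gates with a median log2 ratio of 0.15, and Mt2 in 6 of 9 with a median of 0.09. For Mt2 the counting interval lay above 0 in 3 gates and below 0 in 3. Keratinocyte-like cells stood out at 0.74 (0.70 to 0.78) for Mt1 and 0.94 (0.89 to 0.99) for Mt2, but the median cell differed by 0.17 and 0.043. In the chondrocyte-like gate Mt1 and Mt2 were past 2-fold lower in KO, at -1.97 and -2.52, where 7.77% of genes were. That gate held 20 KO and 42 WT cells, carried otic epithelium markers at 14.7 and 18.8 times the level of the KO and WT libraries, and 1 cell held 24.6% of its Mt1 UMIs in WT, while the median cell differed by -0.20 for Mt1. Mt3 stood at 2.31 there on 38 KO and 11 WT UMIs, under the 50 UMIs needed for a call. Over the 9 gates the counting interval of Mt3 lay above 0 in 3, among them the chondrocyte-like gate, and below 0 in 1. By sign alone Mt3 was higher in KO in 6 of 9 gates at day 25, and it was lower in KO in cells of no single gate. In astrocyte-like cells it stood at 2454 CPM in KO and 1287 CPM in WT at day 25, a log2 ratio of 0.93 (0.84 to 1.03), with medians over cells of 1906 CPM in KO and 1126 CPM in WT. In cells of no single gate it stood at 37.7 CPM in KO and 69.5 CPM in WT, a ratio of -0.88 (-0.96 to -0.80), and these cells hold 41.1% of KO and 59.0% of WT Mt3 UMIs at day 25. Neuron-like cells had 99.6 CPM in KO and 54.6 CPM in WT, a ratio of 0.87 (0.54 to 1.19).

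**Figure D3:**
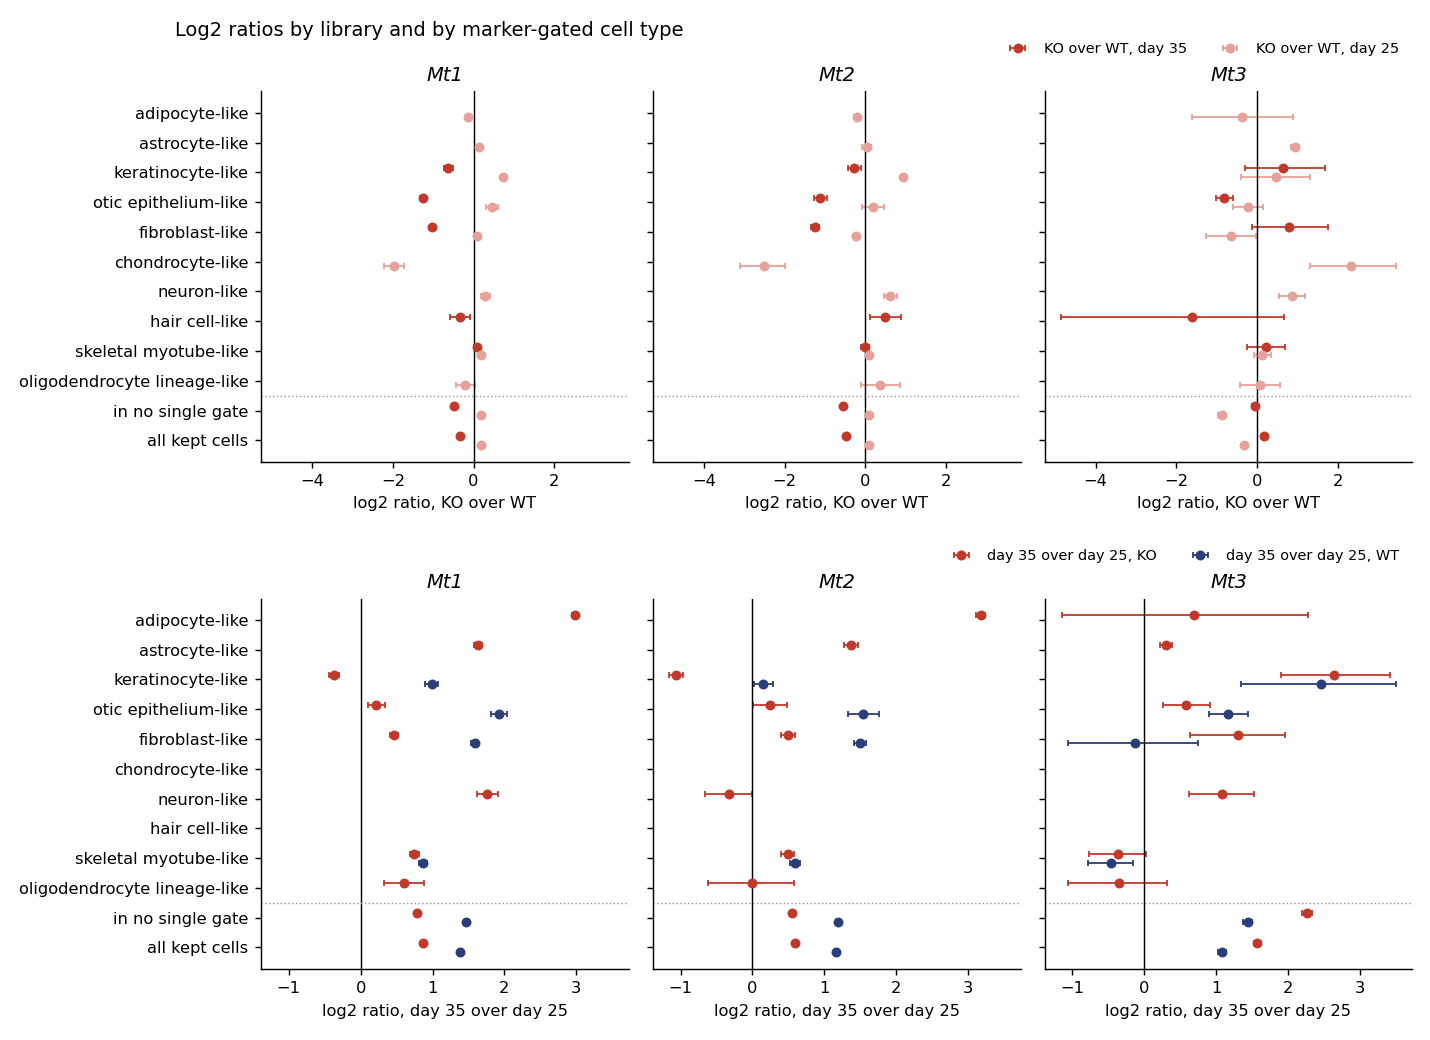
Log2 ratios of KO over WT (upper row) and of day 35 over day 25 (lower row) for each gene over all kept cells, over cells in no single gate and in each gate with at least 20 cells in both libraries, with 95% intervals for counting error. At day 35 Mt1 and Mt2 of otic epithelium-like and fibroblast-like cells lie below -1, and in the lower row adipocyte-like KO cells lie near 3.

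The make-up of the family differed between cell types. A ratio of UMIs of 2 genes within a library does not depend on scaling, but genes can differ in capture, so it is compared between types and not read as the relative abundance of the 2 mRNAs. Over all kept cells there were 0.445 Mt2 UMIs per Mt1 UMI in KO and 0.492 in WT at day 35, and 0.541 in KO and 0.576 in WT at day 25, lower at day 35 in both genotypes and lower in KO on both days. Keratinocyte-like cells had the highest values at day 25, 0.831 (0.806 to 0.858) in KO and 0.724 (0.699 to 0.749) in WT, against 0.516 in KO and 0.405 in WT at day 35. Otic epithelium-like cells had 0.247 in KO and 0.224 in WT at day 35 and 0.243 in KO and 0.292 in WT at day 25, and their intervals lay below those of skeletal myotube-like cells, which had 0.473, 0.502, 0.565 and 0.606 in the same libraries. Neuron-like KO cells had 0.149 (0.117 to 0.188) at day 35, against 0.635 (0.579 to 0.696) at day 25. Mt3 UMIs per Mt1 UMI were 0.230 in astrocyte-like KO cells at day 35, against 0.578 in KO and 0.335 in WT at day 25, and in adipocyte-like cells 0.000269 in KO at day 35, against 0.00131 in KO at day 25.

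**Figure D4:**
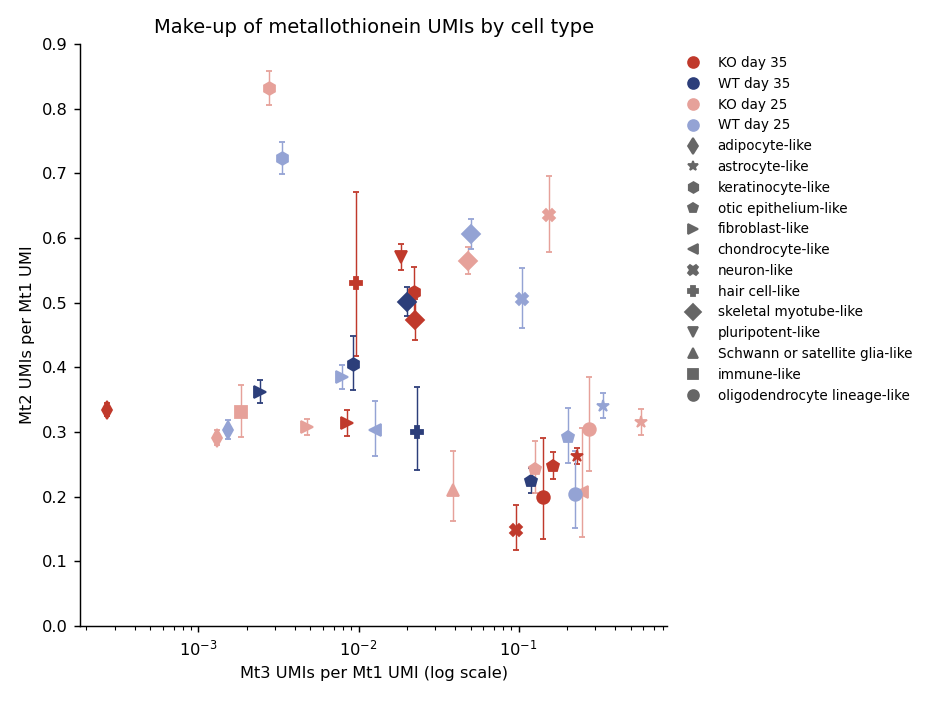
Mt2 UMIs per Mt1 UMI (vertical axis, with 95% intervals) against Mt3 UMIs per Mt1 UMI (horizontal log axis) for each gate with at least 20 cells, coloured by library. Keratinocyte-like cells at day 25 lie at the top, at 0.831 and 0.724 Mt2 per Mt1 in KO and WT, and astrocyte-like cells lie to the right, at 0.230 to 0.578 Mt3 per Mt1.

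Mt1 and Mt2 also varied together from cell to cell. After thinning to 2000 UMIs, Pearson's r of their log-scaled counts over cells was 0.67 in KO and 0.70 in WT at day 35, and 0.63 in KO and 0.66 in WT at day 25, over 6729, 7459, 11190 and 9768 cells that share a library and a depth. Within gates of at least 50 cells it ran from 0.28 in oligodendrocyte lineage-like KO cells at day 25, over 62 cells, to 0.90 in adipocyte-like KO cells at day 35, over 69 cells. Mt3 had r between 0.09 and 0.21 with Mt1 in the 4 libraries. In astrocyte-like cells it was 0.32 in KO at day 35 over 109 cells, and 0.66 in KO over 120 cells and 0.27 in WT over 139 cells at day 25.

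The 1% of cells richest in each gene were picked by the level itself, and their leading genes were named after the values were seen. For Mt1 in KO at day 35 these 68 cells had at least 35062 CPM, and the cell just below had 34247 CPM. Their leading genes were Hp, Cfd, Fabp4, Scd1 and Rbp4, with Adipoq at 434 CPM against 17.8 CPM in the library, and 39.7% of them were in the adipocyte-like gate. In WT at day 35 the 82 richest cells were led by Prok2, Ctla2a, Csf3, Ptx3 and Mmp3. Timp1, an inhibitor of matrix proteases, stood at 1846 CPM in them against 316 CPM in the library, and 1 cell (1.22%) was adipocyte-like. At day 25 the richest cells for Mt1 were led by Mmp12, Scd1, Cfd, Spp1 and Rbp4 in KO, of which 9.82% were adipocyte-like, and by Camp, Gm6619, Cfd, Lrg1 and Ptx3 in WT, of which 16.3% were. The adipocyte-like gate held 1.03% of all KO and 0.159% of all WT cells at day 35, so it was rarer in WT. At day 25 it held 1.13% of KO and 1.23% of WT cells. The summed level of the adipocyte markers in these Mt1-rich cells was 10455 CPM against 557 CPM in the library for KO and 1094 CPM against 310.4 CPM for WT at day 35, and 5557 CPM against 1296 CPM for KO and 3619 CPM against 961 CPM for WT at day 25. For Mt3 the richest cells of KO at day 35 and of both libraries at day 25 were led by Gfap, and 42.6% of them in KO at day 35 and 64.3% in KO and 50% in WT at day 25 were astrocyte-like. In WT at day 35 the Mt3-rich cells were led by Npy, Cldn10 and S100g, and 2 of 82 (2.44%) were in the astrocyte-like gate. That gate held 1.62% of KO and 0.0857% of WT cells at day 35. At day 25 it held 1.07% of KO and 1.42% of WT cells. Chondrocyte markers in the Mt3-rich cells stood at 853 CPM in KO and 1598 CPM in WT at day 35, against 225 CPM in both libraries. At day 25 they stood at 271 CPM in KO against 77.6 CPM in its library, and at 799 CPM in WT against 156 CPM. No Mt3-rich cell was in the chondrocyte-like gate.

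The genes most like each member were sought over 25 profiles of type and library with at least 50 cells, among 5747 genes with a mean of at least 20 CPM, by Pearson's r of log2(CPM + 10). Mt1 and Mt2 had r = 0.92 with each other, above every other gene for both. Mt1 was next closest to Tmbim6 (0.84), Etfa (0.82), Cav2 (0.81), Hadhb (0.79) and Clybl (0.79), among them Etfa and Hadhb, which encode mitochondrial enzymes of fatty acid oxidation. Mt2 was next closest to Mgmt (0.77), Etfa (0.76), Lgals3 (0.75), Cav2 (0.72) and Cdk2ap2 (0.72). Mt3 had r = 0.10 with Mt1 and -0.05 with Mt2, and was closest to Ttyh1 (0.91), D1Ertd622e (0.91), Tsc22d4 (0.90), Aqp4 (0.89) and Atp1b2 (0.89), of which Ttyh1 and Aqp4 are markers of the astrocyte-like gate. Profiles of one library share its depth and preparation.

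Mt4, the fourth gene of the cluster, was detected almost wholly at day 25. It had 6 UMIs in KO and 4 in WT at day 35, and 2169 UMIs (25.7 CPM) in KO and 1012 UMIs (13.9 CPM) in WT at day 25. In keratinocyte-like cells at day 25 it stood at 628 CPM in KO and 82.6 CPM in WT, and 1 cell held 48.9% of the WT UMIs. Those of day 35 had no Mt4 UMI in 95 KO and 62 WT cells. The 3 UMIs to which a count of 0 was set in ratios would be 4.37 CPM in KO and 11.03 CPM in WT. In KO the 95% Poisson interval of that count of 0 reached 5.37 CPM. Mtf1, the metal-sensing transcription factor, was low, with 11.1 CPM in KO and 9.68 CPM in WT at day 35, and 11.9 CPM in KO and 13.8 CPM in WT at day 25, a log2 ratio of -0.51 (-0.70 to -0.32) for the days in WT.

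Of 24 zinc transporter genes, 4 of 22 measured were past 2-fold higher and 1 lower at day 35 over day 25 in KO, with a median log2 ratio of 0.23, and 1 of 20 was higher and 1 lower in WT, with a median of -0.0039. Over all genes the shares past 2-fold higher and lower were 11.3% and 7.28% in KO, with a median of 0.14, and 6.96% and 13.1% in WT, with a median of -0.14. Slc39a1, a zinc importer of the cell surface with the most UMIs of the list, followed the order of Mt1, with 168 CPM in KO and 225 CPM in WT at day 35, and 126 CPM in KO and 113 CPM in WT at day 25. For KO over WT at day 35, 2 of 20 zinc transporter genes measured were past 2-fold higher, where 7.82% of all genes were. No gene of the list was past 2-fold lower, where 2.41% of all genes were. The list's median was 0.233, against 0.226 over all genes. Its highest gene was Slc39a12, a zinc importer of brain, with 77 UMIs in KO and 8 in WT, a log2 ratio of 2.96 (1.91 to 4.22). Of 11 copper-handling genes, with median day ratios of 0.32 in KO and 0.12 in WT, none was past 2-fold in KO, and in WT Cox17, a mitochondrial copper chaperone, was higher (261 CPM at day 35 and 112 CPM at day 25, ratio 1.23) and Atp7b, a copper pump, lower (-1.18). Atox1, a cytosolic copper chaperone with the most UMIs of that list, had 491 CPM in KO and 444 CPM in WT at day 35, and 269 CPM in KO and 252 CPM in WT at day 25. No gene of the 8 for iron was past 2-fold in any comparison, and their median day ratios were 0.22 in KO and 0.32 in WT. Fth1, the ferritin heavy chain, had 4840 CPM in KO and 6245 CPM in WT at day 35, and 4718 CPM in KO and 4866 CPM in WT at day 25. Ftl1, the ferritin light chain, had 5044 CPM in KO and 6413 CPM in WT at day 35, a ratio of -0.35 beside -0.33 for Mt1. At day 25 Ftl1 was again lower in KO, with 4297 CPM in KO and 4698 CPM in WT. Mt1 was higher in KO on that day, at 0.19.

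In the glutathione and oxidative stress list 16 of 17 genes were above 0 for day 35 over day 25 in KO and 4 past 2-fold higher, where 11.3% of all genes were, with a median log2 ratio of 0.62 against 0.14 over all genes, and in WT 14 of 17 were above 0 and 3 past 2-fold higher, where 6.96% of all genes were, with a median of 0.37 against -0.14. Other lists had medians above that of all genes in WT too, at 0.37 for the interleukin-6 list, 0.32 for iron and 0.25 for glucocorticoids. The copper list at 0.12 and the zinc transporters at -0.0039 were also above it. In KO these lists were above the 0.14 of all genes as well. Their KO medians were 0.32 for copper, 0.23 for zinc, 0.22 for iron, 0.22 for interleukin-6 and 0.17 for glucocorticoids. Prdx1, a peroxiredoxin, had 2223 CPM in KO and 2236 CPM in WT at day 35, and 918 CPM in KO and 932 CPM in WT at day 25. Slc7a11, the cystine importer, had 73.2 CPM in KO and 109 CPM in WT at day 35, a log2 ratio of -0.57 and the lowest of the list between genotypes. The highest was Gclm, a subunit of the enzyme that starts glutathione synthesis, with 86.1 CPM in KO and 51.6 CPM in WT at day 35, a ratio of 0.74. Of that list 11 of 17 genes were above 0 between genotypes at day 35, with a median of 0.14 against 0.23 over all genes. Of 10 glucocorticoid genes measured, 1 was past 2-fold higher in KO at day 35, where 7.82% of all genes were. It was Fkbp5, a chaperone induced by glucocorticoids, with 8.77 CPM in KO and 2.88 CPM in WT. Tsc22d3, another target, stood at -0.57. For day 35 over day 25, 2 of the 10 were past 2-fold higher in KO, where 11.3% of all genes were. In WT 3 were past 2-fold higher and 1 lower, where 6.96% and 13.1% of all genes were. Pdk4, a kinase that restrains glucose oxidation, was the highest of that list with day, at 2.39 in KO and 3.23 in WT. The lowest in WT was Fkbp5, at -1.11. Ddit4, a stress-induced gene with the most UMIs of that list, had 162 CPM in KO and 147 CPM in WT at day 35, and 155 CPM in KO and 131 CPM in WT at day 25. In the list of 12 interleukin-6 family and acute phase genes, 6 of 12 were above 0 for KO over WT at day 35. Their median was -0.03 against 0.23 over all genes, and 2 were past 2-fold lower, where 2.41% of all genes were. At day 25 7 of 12 were above 0, with a median of 0.07 against -0.03. Past 2-fold lower was 1, where 3.68% of all genes were. Hp, which encodes haptoglobin, had 40.5 CPM in KO and 27.1 CPM in WT at day 35, and 32.8 CPM in KO and 22.0 CPM in WT at day 25, a ratio of 0.58 on both days and the highest of the list. Cebpb, a transcription factor of the acute phase, had 719 CPM in KO and 790 CPM in WT at day 35, and 622 CPM in KO and 523 CPM in WT at day 25. Socs3, an inhibitor of Stat3 signalling, had 206 CPM in KO and 154 CPM in WT at day 35, and 115 CPM in KO and 91.9 CPM in WT at day 25. Saa3, an acute phase protein, had 179 CPM in KO and 982 CPM in WT at day 35, a log2 ratio of -2.46, and 546 CPM in KO and 642 CPM in WT at day 25. Lcn2, another acute phase protein, had 316 CPM in KO and 822 CPM in WT at day 35, and 220.5 CPM in KO and 517 CPM in WT at day 25, a ratio of -1.23 at day 25. These lists were compared by counts and medians only.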

How the data were processed

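Inner ear organoids of 4 groups, 1 library each, were measured by droplet single-cell RNA sequencing with 10x Genomics v2 chemistry, per the labels. The deposited matrices hold raw UMI counts per gene and barcode. Per the submitters' processing notes, the tools were Cell Ranger 2.1.0, bcl2fastq, R 3.5.1 and Seurat 2.3.1, and GRCm38 and mm10 are named as builds, with no settings, and how reads shared between paralogs were counted is not given in the sources used here. Kept barcodes had at least 500 genes and at most 10% mitochondrial UMIs. Their UMIs were summed per library and gate and scaled to 1000000 UMIs (Python 3.11.15, numpy 2.4.6, scipy 1.17.1, pandas 2.3.3). Intervals are exact 95% ones for counting error: Poisson for levels, conditional binomial for ratios, Clopper-Pearson for shares. A count of 0 was set to 3 UMIs in a ratio. With 1 library per group, and nothing in the labels on separate cultures, no test was made, and a gene was called past 2-fold with at least 50 UMIs over both libraries.

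A cell passed a gate with at least 3 of a type's markers each above a Poisson tail of 0.001 for the library's mean profile at that depth. This rule was set after the data were seen. Barcodes that passed several gates, 15 in KO and 9 in WT at day 35 and 69 in KO and 106 in WT at day 25, were put in no gate, and no doublet caller was run. Shares of cells with a UMI used cells thinned to 2000 UMIs. By rule, the genes named from the pathway lists are those with the most UMIs and with the highest and lowest ratio in a comparison. The text gives some of these, picked after their values were seen, with a few others, and the 5 genes most like each member are named. The members, lists and markers were chosen with earlier results of these data known. The interval calculations were tested on simulated data. Alternatives to the filter, scaling, weighting, gates and minimum are in the closing section, 5 of them chosen after seeing the data: the looser marker tail, leaving out the cell with the most UMIs, medians over cells, leaving out the top 1% of cells, and equal weights without the chondrocyte-like and hair cell-like gates.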

Additional observations from a re-analysis of the deposited data

Results flagged for a closer look

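In 9 cases a ratio had opposite signs under the same contrast in both of the groups set side by side, with counting intervals on opposite sides of 0. Each value rests on 1 library per group, so none of these differences was tested against replicates.

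For KO over WT, the day 35 minus day 25 difference of the log2 ratios of Mt1 over all kept cells was -0.51, from -0.33 at day 35 and 0.19 at day 25. In otic epithelium-like cells it was -1.71, from -1.25 at day 35 and 0.46 at day 25, although the day 25 value was -0.010 by medians over cells. In keratinocyte-like cells it was -1.36 and in fibroblast-like cells -1.12, where the fibroblast-like day 25 value of 0.09 was -0.068 by medians over cells. For Mt2 the difference was -0.57 over all kept cells, from -0.47 at day 35 and 0.10 at day 25, and -1.21 in keratinocyte-like cells, from -0.27 at day 35 and 0.94 at day 25. For Mt3 over all kept cells it was 0.49, from 0.17 at day 35 and -0.32 at day 25.

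For day 35 over day 25 in keratinocyte-like cells, the KO minus WT difference was -1.36 for Mt1, from -0.37 in KO and 0.99 in WT, and -1.21 for Mt2, from -1.06 in KO and 0.15 in WT. These are the same differences as the keratinocyte-like ones for KO over WT, since both are built from the same 4 levels. Median depth of keratinocyte-like cells was 5735 UMIs in KO and 3924 in WT at day 35, and 9814 in KO and 8938 in WT at day 25, and its part in these differences was not tested.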

How the results depend on the processing

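No paired analysis was possible because each group is 1 library and the labels give no shared replicate numbers. The values below are log2 ratios in the order Mt1, Mt2, Mt3 unless other genes are named, and the cause of each change was not tested. Over all kept cells, 64 of 90 alternative values moved beyond the counting interval, 6 turned direction and 20 did neither. Of 358 values by gate, 120 moved and 17 turned. All 48 alternative list medians kept their value within limits, and all 24 shares of cells moved with thinning.

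With no filter on barcodes, KO over WT at day 35 was -0.24, -0.39 and 0.25, day 35 over day 25 in KO was 0.89 for Mt1 and 1.81 for Mt3, and in WT 1.31, 1.07 and 1.24. With at least 1000 genes and at most 5% mitochondrial UMIs, KO over WT was -0.64, -0.82 and 0.56 at day 35 and 0.17, 0.060 and -0.050 at day 25, and day 35 over day 25 was 0.96, 0.79 and 1.15 in KO and 1.77, 1.67 and 0.53 in WT. With median-of-ratios scaling, KO over WT was -0.53, -0.68 and -0.031 at day 35 and 0.22 and 0.13 for Mt1 and Mt2 at day 25, and day 35 over day 25 was 0.72, 0.44 and 1.42 in KO and 1.46, 1.23 and 1.16 in WT. With the mean of each cell's own CPM, KO over WT was -0.32, -0.42 and 0.46 at day 35 and 0.24, 0.15 and -0.19 at day 25, and day 35 over day 25 was 0.86, 0.61 and 1.64 in KO and 1.41, 1.18 and 0.99 in WT. With gated types weighted equally, KO over WT was -0.63, -0.43 and -0.15 at day 35 and -0.046, -0.079 and 0.39 at day 25, and day 35 over day 25 was 1.004, 0.55 and 0.74 in KO and 1.34, 0.95 and 0.76 in WT. Leaving the chondrocyte-like and hair cell-like gates out of that mean, KO over WT was -0.71 and -0.66 for Mt1 and Mt2 at day 35, and 0.23 for Mt2 and 0.15 for Mt3 at day 25. Without the 1% of cells with the highest level, KO over WT was -0.45, -0.51 and 0.24 at day 35 and -0.67 for Mt3 at day 25, and day 35 over day 25 was 0.84, 0.62 and 2.09 in KO and 1.47, 1.21 and 1.17 in WT. Without barcodes found in several libraries Mt1 was 0.86 for day 35 over day 25 in KO.

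Mt2 UMIs per Mt1 UMI were 0.432 in KO and 0.479 in WT at day 35 and 0.535 in KO and 0.565 in WT at day 25 with no filter, and 0.495, 0.5601, 0.555 and 0.599 in that order with the stricter filter. Genes past 2-fold higher and lower were 1117 and 344 for KO over WT at day 35, 295 and 573 at day 25, 1724 and 1115 for the days in KO, and 1039 and 1949 in WT. At a minimum of 200 UMIs these counts were 567 and 225, 147 and 292, 1100 and 729, and 1292 lower in WT. At 1 UMI they were 2929 and 1711, 1430 and 2083, 4481 and 1700, and 3590 higher in WT. At 20 UMIs 453 were higher for KO over WT at day 25.

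Directions that turned by gate were as follows. By medians over cells, KO over WT for Mt1 was 0.34 in hair cell-like and -0.029 in myotube-like cells at day 35, and -0.010 in otic epithelium-like, -0.068 in fibroblast-like and 0.37 in adipocyte-like cells at day 25, where Mt2 in adipocyte-like cells was 0.12. By the same measure Mt2 for the days in KO was -0.11 in otic epithelium-like, 0.89 in neuron-like and -0.44 in fibroblast-like cells. With 4 markers needed, KO over WT at day 25 was 0.30 for Mt1 and 0.42 for Mt2 in adipocyte-like cells and 0.042 for Mt2 in fibroblast-like cells, and the days in KO were 0.25 for Mt1 in keratinocyte-like cells and -0.032 for Mt1 and -0.22 for Mt2 in fibroblast-like cells. With a marker tail of 0.01, Mt2 was -1.07 for KO over WT in hair cell-like cells at day 35 and -0.14 for the days in keratinocyte-like WT cells. Some Mt3 levels outside the astrocyte-like and otic epithelium-like gates rest on fewer than 50 UMIs.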
